A study of Rattus norvegicus with 30 samples.

Results

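The partially methylated CHG sites of the rat medial prefrontal cortex (mPFC) were 6549 autosomal cytosines with a mean methylation over rats between 0.1 and 0.9. A CHG site is a cytosine followed by a base other than G and then by a G. The members were taken from the CHG calls made for aged and young rats on chromosomes 1 to 20. A member had a value in at least 10 of the 30 rats, an unweighted mean ratio over all rats over 0.1 and at or under 0.9, and group means of aged and young rats no more than 0.8 apart. Of 266960 CHG sites in these calls, 250119 were autosomal and 205084 of those had values in 10 or more rats, so that the members made up 3.19% of them. A further 198225 sites (96.7%) had a mean at or under 0.1, only 80 a mean over 0.9, and 230 lay between the limits but had group means more than 0.8 apart.

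The tissue was the prelimbic and infralimbic mPFC of male Fischer 344 rats, an inbred strain. The 10 young rats were 5 to 6 months old and the 20 aged rats 17 to 22 months old. After a set shifting task, which tests cognitive flexibility, 9 aged rats were classed as impaired (AI) and 11 as unimpaired (AU). Each rat gave 1 whole genome bisulfite library. The value of a site in a rat, called the ratio here, is the share of reads with an unconverted cytosine, from 0 to 1. It is missing where fewer than 5 reads covered the site, and the depth behind each ratio is otherwise unknown.

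In mammals, most DNA methylation lies at CpG, where the symmetric site allows the mark to be copied after replication by DNMT1. Methylation outside CpG is laid down by the de novo enzymes, mainly DNMT3A in postnatal brain, and builds up in neurons as they mature. It is most frequent at CA dinucleotides, and most other adult tissues carry little of it. A bisulfite ratio cannot tell methylated from hydroxymethylated or unconverted cytosine. The CHG context of each site was taken as called and was not checked against the sequence of these rats. The piece of cortex mixes neurons and glia, so a ratio between 0 and 1 cannot tell a site methylated in some cells from one methylated on some chromosomes of each cell.

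The typical member was only slightly above the lower limit. The median of the member means was 0.155, the 10th and 90th percentiles were 0.107 and 0.474, and 4325 members (66.0%) lay between 0.1 and 0.2. From 0.2 to 0.3 there were 914 members, from 0.3 to 0.5 there were 720, from 0.5 to 0.7 there were 348 and from 0.7 to 0.9 there were 242. In bins of 0.02 the counts fell from 1590 in the lowest bin to 54 just under 0.5, and between 0.7 and 0.9 they lay between 16 and 36 with no separate peak. The limits cut through this slope. The members just inside 0.1 were chr10:112157342 and chr3:83914380 and the sites just outside were chr12:33830 and chr2:122217264, all with a mean of 0.1 after rounding. Just inside 0.9 were chr4:7775430 (0.896) and chr5:160325379 (0.898), and just outside were chr11:17228403 (0.901) and chr14:66893757 (0.903). Just inside a difference of 0.8 were chr3:173344319, with 0.823 in aged and 0.0242 in young rats, and chr5:102296, with 0.107 and 0.906. Just outside were chr19:39874479, with 0.862 and 0.0565, and chr7:716386, with 0.133 and 0.939. Of the 230 sites beyond this limit, 150 had a young mean and 74 an aged mean at or under 0.1.

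**Figure D1:**
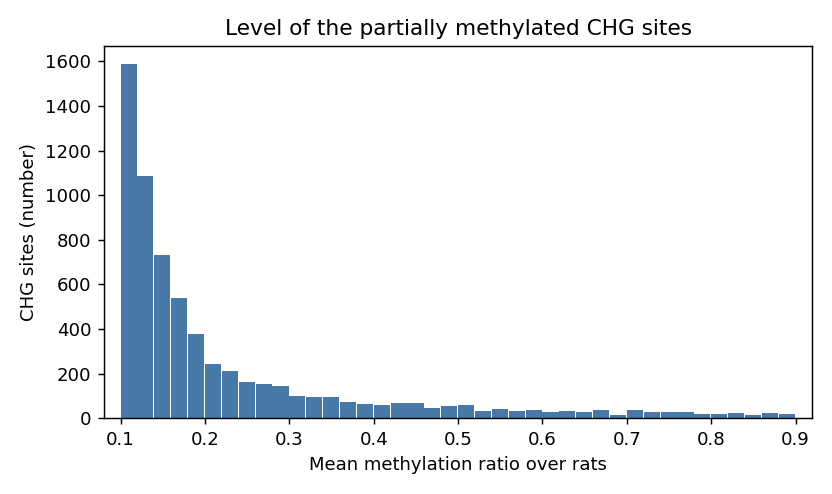
Number of partially methylated CHG sites (vertical axis) by their mean methylation ratio over rats (horizontal axis, bins of 0.02). Of the 6549 sites, 4325 lie at or under 0.2 and 590 lie over 0.5.

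A member had values in a median of 17 rats, and 337 members had values in all 30. The median SD between rats was 0.120 over all members, 0.112 in the lowest band and 0.169 from 0.5 to 0.7. At the 337 complete members the median SD was 0.0775 between aged and 0.0790 between young rats, so the rats of either age varied to a similar extent. Of the 77326 single ratios in the band from 0.1 to 0.2, 25.4% were exactly 0, against 0.396% of the ratios in the band from 0.5 to 0.7. In 1431 members (21.9%) no rat with a value was at 0, and this held for 146 of the 337 complete members.

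The 4 complete members with the highest means, chosen after their values were seen, were high in every rat. At chr6:38848715 the lowest, median and highest ratios were 0.6, 0.922 and 1 in aged rats and 0.615, 0.882 and 1 in young rats. At chr3:43264 they were 0.786, 0.887 and 0.935 in aged and 0.696, 0.886 and 1 in young rats. The means over 30 rats were 0.863 ± 0.0584 (SD) at chr12:22045805 and 0.849 ± 0.0760 at chr20:42602888. Aged and young rats overlapped at all 4 sites, and no ratio of any rat was under 0.6.

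The 4 complete members with the largest spread covered most of the scale. At chr18:80938653 the ratios ran from 0.250 over a median of 0.472 to 0.875 in aged rats, and from 0.333 over 0.596 to 0.833 in young rats. At chr8:41801548 they ran from 0.222 over 0.372 to 1 in aged rats and from 0 over 0.485 to 0.650 in young rats. The SD over the 30 rats was 0.190 and 0.185 at these sites, 0.183 at chr3:59901363 and 0.178 at chr17:47591116. The groups overlapped at each of them.

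The CpG next to a member over 0.5 was poorly methylated in most pairs, though not in all. A CpG was listed 1 base away from 507 members, which gave 510 pairs. Beside members between 0.1 and 0.2 the median CpG ratio was 0.741 (324 pairs). It was 0.611 beside members from 0.2 to 0.3 (74 pairs), 0.393 from 0.3 to 0.5 (62 pairs), 0.128 from 0.5 to 0.7 (33 pairs) and 0.120 from 0.7 to 0.9 (17 pairs). In this highest band the pairs were split, with 12 CpGs at or under 0.344 and 5 between 0.781 and 0.893, and the quartiles were 0.0174 and 0.781. Beside autosomal CHG sites at or under 0.1 it was 0.785 (17981 pairs). The median CpG level was thus lower in each higher band of the CHG site. The sum of the mean ratios of a pair had medians of 0.872, 0.839, 0.857, 0.753 and 0.891 in the 5 bands, with an upper quartile of 1.48 in the highest.

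Over the 510 pairs Pearson's r between the means was -0.50 and Spearman's rho was -0.41, where both ratios of a pair come from the same libraries. The r was -0.58 over the 264 pairs with the CpG at the next higher coordinate and -0.41 over the 246 with the CpG at the next lower one. Over the pairs of low CHG sites it was 0.07. These sites span a much narrower range of ratios, so the values of r cannot be read against each other. Of the 50 pairs with a member over 0.5, the CpG was under 0.5 in 42 and under 0.2 in 31, while the highest was 0.939, beside chr6:128226866, named after its value was seen, whose own mean was 0.633.

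An example is chr1:56940755, which had values in all 30 rats and was chosen after its values were seen. The lowest, median and highest ratios of this member were 0.538, 0.760 and 1, and those of the CpG 1 base after it were 0, 0.152 and 0.385. No rat had the CpG above the member. At chr20:42602888, among the highest complete members above, the CpG 1 base after had a mean of 0.0174 ± 0.0270 (SD, n = 30) and a highest ratio of 0.0833. Within a pair, the r between rats had a median of -0.17 over the 331 pairs with at least 15 rats, and it was below 0 in 239 of them.

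**Figure D2:**
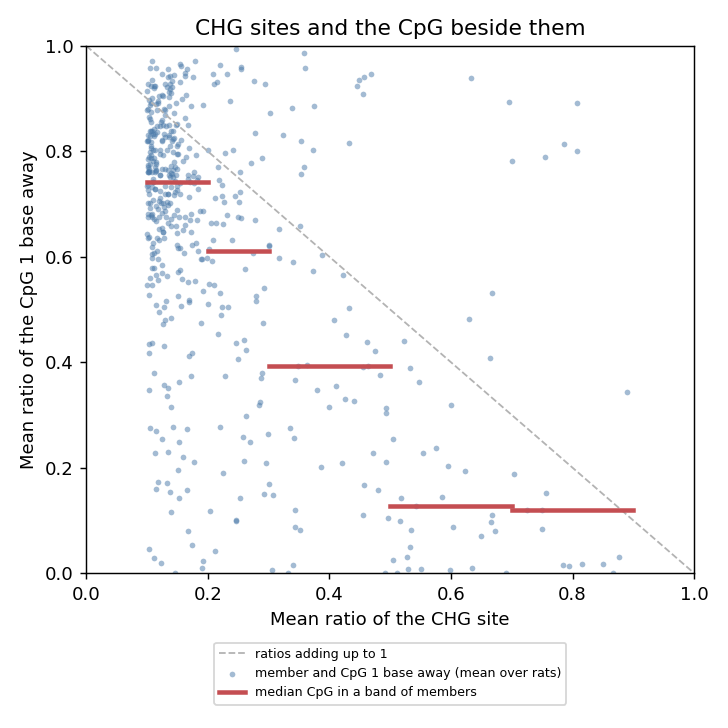
Mean ratio over rats of a partially methylated CHG site (horizontal axis) against that of the CpG listed 1 base away (vertical axis), 510 pairs. Red bars are the median CpG ratio in bands of the CHG ratio, from 0.741 in the lowest to 0.120 in the highest band, and the dashed line marks ratios adding up to 1.

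The low CpG level was seen at a distance of 1 base. At 2 bases from members over 0.5 the median CpG ratio was 0.651 (23 CpGs), and from 2 to 20 bases it lay between 0.651 and 0.874, with 10 to 35 CpGs at each distance. Within 100 bp the median was 0.746 around members (4971 with a CpG) and 0.754 around low CHG sites. For members over 0.7 it was 0.779, with quartiles of 0.674 and 0.848. The wider CpG neighbourhood of the members was therefore close to that of other CHG sites.

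The CHG and CHH sites around a member had low ratios, some of them slightly above those around low CHG sites. CHH sites 1 base away had medians of 0.0101 beside members over 0.5, 0.0126 beside members at or under 0.2 and 0.00483 beside low sites. CHG sites 3 bases away had 0.0237 beside members at or under 0.2 and 0.0118 beside low sites. A CHG site was listed 2 bases away from 1354 members, a distance that includes the opposite cytosine of the same CHG. The calls give no strand and some members had such a site on both sides, so not all of them can be that partner. These 1429 sites had a median ratio of 0.00952 and 65 of them (4.55%) were over 0.1. Around low CHG sites the same figures were 0.0112 and 3.51%. Beside members from 0.5 to 0.7 the median was 0.0125, and 5 of 51 sites (9.80%) were over 0.1, as were 10 of 108 (9.26%) beside members from 0.3 to 0.5.

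Within 100 bp the other CHG sites had a median of 0.0181 around members and 0.0170 around low sites. CHH sites, which have no G at either of the next positions, had medians of 0.0150 and 0.0128. Both were lower around the most methylated members, where they were 0.0140 for CHG and 0.0107 for CHH in the band over 0.7. The median non-CpG level around the members was thus under 0.02 in every band.

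**Figure D3:**
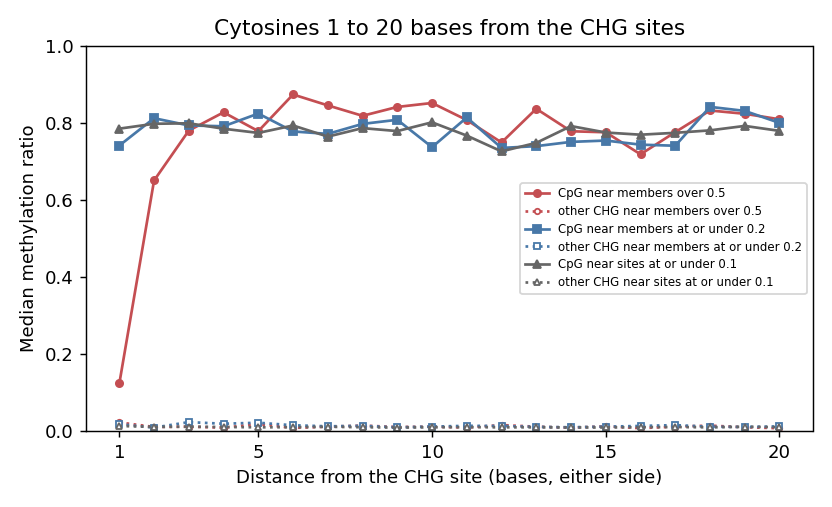
Median methylation ratio (vertical axis) of CpG (filled) and other CHG (open) sites 1 to 20 bases from CHG sites over 0.5 (red), at or under 0.2 (blue) and low CHG sites (grey). CpGs 1 base from sites over 0.5 have a median of 0.124, CpGs farther away between 0.651 and 0.874, and CHG sites lie near 0 at every distance.

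Members were spread over all 20 autosomes and made up between 2.58% (chromosome 11) and 5.12% (chromosome 19) of the sites with 10 or more rats. Chromosome 1 held most, 1136, followed by chromosome 19 with 790, chromosome 2 with 598 and chromosome 9 with 548. In windows of 1 Mb, 18 windows with 50 or more members held 31.0% of all members and 22.7% of all sites. The window from 37 to 38 Mb of chromosome 19 had 230 members among 3996 sites (5.76%), and that from 56 to 57 Mb of chromosome 1 had 207 among 7868 (2.63%). Among the windows with most members the share reached 5.82%, from 187 to 188 Mb of chromosome 1 (117 of 2011).

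Joined over gaps under 1000 bp, the members formed 4076 runs, and 2997 members (45.8%) stood alone. Only 171 runs had 5 or more members, which together held 1341 (20.5%). The run with most members, chr4:209837482-209840012, had 21 members among 296 sites. It was followed by chr1:56939700-56944719 with 20 of 530, and by 3 runs of 18 members, chr1:56860669-56864112, chr19:37507953-37510401 and chr19:38812801-38816580, with 353, 241 and 217 sites. The sites in these spans that were not members had medians between 0.0100 and 0.0164. Members were a minority in their own runs, between 3.77% and 8.29% of the sites.

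Within the chromosome 4 run, member means lay between 0.102 and 0.310, whereas the chromosome 1 runs reached 0.756 and 0.814. In aged rats the chromosome 4 run averaged 0.158 ± 0.0278 (SD, n = 20), and young rats had 0.161 ± 0.0226 (SD, n = 10), with ranges of 0.113 to 0.215 and 0.133 to 0.205. Over chr1:56939700-56944719 it was 0.238 ± 0.0432 and 0.256 ± 0.0313. In the chromosome 19 run from 37507953 the mean was 0.176 ± 0.0553 in aged and 0.135 ± 0.0790 in young rats. Their ranges overlapped in each run. The member of each run with values in most rats was chr4:209837482 (mean 0.177), chr1:56939835 (0.132), chr1:56860669 (0.127), chr19:37509750 (0.252) and chr19:38815826 (0.119).

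Over the 5 runs the difference between AI and AU means lay between 0.000728 and 0.0369. The means over the chromosome 4 run were 0.159 ± 0.0294 in AI and 0.158 ± 0.0275 in AU rats. Over chr1:56939700-56944719 they were 0.258 ± 0.0487 and 0.221 ± 0.0313, a difference of 0.0369 that was the largest among the 5 runs. These means are given as values only, without a p, since the runs were picked for their number of members.

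Gene names come from CpGs that the study listed with a gene in the rn5 annotation, and a member is named by such a CpG within 1000 bp. These CpGs were selected by the study on the same rats, so the genes are an address and not a sample of the genome. The genes and single members described here were chosen after their values were seen. In all, 300 members lay near CpGs of 88 genes. LOC100363633 on chromosome 19 had 32 such members with means up to 0.356, LOC100360856 on chromosome 9 had 20, and Tbc1d5, which encodes a GTPase-activating protein for Rab GTPases in endosomal trafficking, had 15.

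Members near intronic CpGs of Tbc1d5 had means from 0.104 to 0.686. At chr9:1394314 the lowest, median and highest ratios were 0.333, 0.667 and 0.947 in 17 aged rats and 0.5, 0.765 and 1 in 9 young rats. Near Fam13a, chr4:154067862 had a mean of 0.814, and the member 81 bases further, chr4:154067943, had 0.361. Near Fgf14, which encodes a modulator of neuronal sodium channels, chr15:113816365 had 0.691 and chr15:113816338 had 0.104. Near Cdc42bpa, a kinase downstream of the GTPase CDC42, chr13:103277364 had 0.530. Near Fam13a and Fgf14, members of very different level thus stood within 100 bases of each other.

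Near Ssr3, which encodes a subunit of the translocon-associated complex of the endoplasmic reticulum, all 6 members lay between 0.113 and 0.210. The one with values in all 30 rats, chr2:175410154, had 0.0526, 0.2 and 0.357 as lowest, median and highest ratio in aged and 0.105, 0.214 and 0.350 in young rats. Near Hecw1, an E3 ubiquitin ligase, 5 members lay between 0.117 and 0.266. The groups overlapped at each of these members.

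Between rats, the mean over members differed more between number series A and B of the rat identifiers than between age groups or between AI and AU rats, and the number of members with a value moved with it. The identifiers fall into 3 series. Series A held 3 young and 11 aged rats, series B 3 young and 8 aged rats, and series C 4 young rats and 1 aged rat. The labels do not say what the series stand for. The member rule uses the mean over these same rats, so the values per series describe the members and are no test. The mean over all members with a value was 0.220 ± 0.00417 (SD, n = 14) in series A, with a range of 0.213 to 0.225, and 0.255 ± 0.00807 (SD, n = 11) in series B, with a range of 0.244 to 0.270. These ranges did not overlap. In series C the 4 young rats lay between 0.244 and 0.259 and the aged rat at 0.224.

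Rats of series B had fewer members with a value. Aged rats had between 4153 and 5785 in series A and between 1522 and 3485 in series B, and young rats had between 5189 and 5734 and between 1564 and 3361. In series C the aged rat, with a mean like that of series A, had 5550, whereas the 4 young rats had between 1624 and 4578. At the 337 members with values in all rats, where every rat contributes the same sites, the mean was 0.241 ± 0.00384 in series A and 0.259 ± 0.00676 in series B, and the ranges still did not overlap. The median SD between rats at these members was 0.0635 in series A and 0.0883 in series B. The low CHG sites did not follow this pattern, with means of 0.0151 ± 0.000397 in series A and 0.0147 ± 0.000328 in series B. They were chosen by their mean over the same rats, so they are no independent comparison. The part of the number of values or reads in the gap between series was not tested.

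With each ratio taken relative to the mean of its site, the gap between series was seen in both age groups at low levels and less evenly at high levels. In members from 0.1 to 0.2 the aged rats averaged -0.00554 in series A and 0.00896 in series B, and the young rats -0.00532 and 0.0139. In members from 0.7 to 0.9 the aged rats averaged 0.00120 and 0.00355, whereas the young rats averaged -0.0100 and 0.00450.

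**Figure D4:**
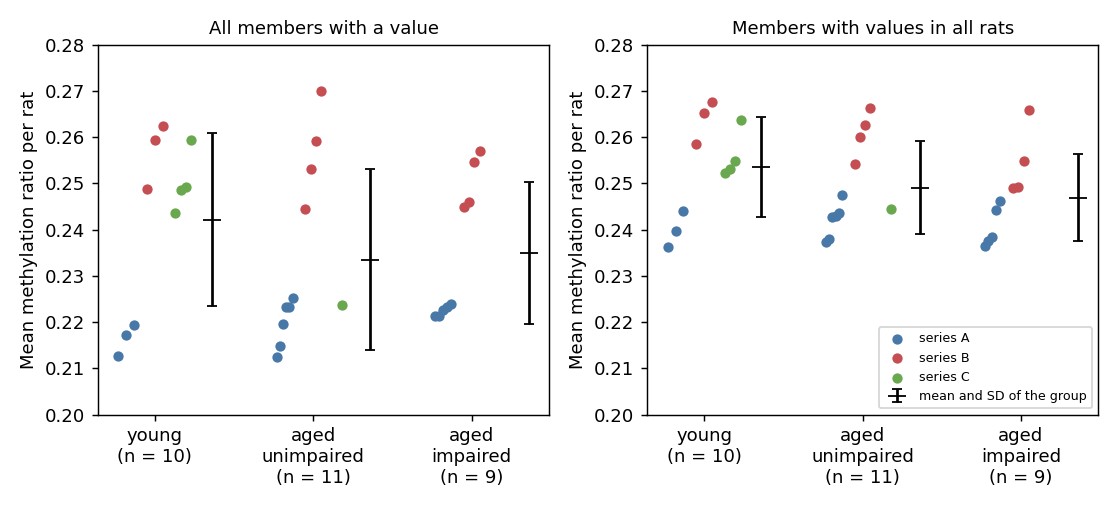
Mean methylation ratio of each rat over all members with a value (left) and over the 337 members with values in all 30 rats (right), by group, with colours for the number series and the group mean and SD in black. The vertical axis starts at 0.2. Rats of series A lie between 0.213 and 0.225 on the left, below every rat of series B.

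Aged and young rats had similar levels at the members. Because the member rule uses the mean over rats and limits the difference between the groups, the values of this contrast, counts of calls included, describe the members and are no test of them. Aged rats averaged 0.234 ± 0.0174 over the members (SD, n = 20), and young rats averaged 0.242 ± 0.0187 (SD, n = 10). The difference, -0.00792, was under 1 SD. It was 0.00453 within series A and -0.00323 within series B. At the complete members the means were 0.248 ± 0.00960 and 0.253 ± 0.0108. Over the 6549 members, Pearson's r between the aged and the young mean was 0.87, over sites that the rule had limited in their difference.

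At single members the median absolute difference between the group means was 0.0447, against 0.0635 over all tested CHG sites. In the test run over the whole CHG table, 411 members (6.28%) had an unadjusted p under 0.05, where 8.99% of all 14542 tested CHG sites did. Of these, 231 were higher and 180 lower in aged rats, beside 4.78% and 4.22% of all tested sites. With p-values adjusted over the 14542 sites, 40 members passed, 25 of them higher in aged rats, beside 2.12% of all tested sites. This number followed the rule and the filters: it was 218 of 6745 sites without the limit of 0.8, 16 without the ratio filter and 0 of the 337 complete members, of which 20 had an unadjusted p under 0.05. The 2 shares cannot be read against each other, since the tested sites outside the members differ from them by the rule: they include sites over 0.1 in only 1 group, beyond the limit of 0.8, with under 10 rats, with a mean over 0.9 or off chromosomes 1 to 20. Of these sites 11.2% had a p under 0.05, and of all CHG sites without a filter on the ratio 3.01%. Without series A, 140 of 2985 members (4.69%) had a p under 0.05 and 1 passed the adjustment, beside 6.26% and 0.287% of the 6631 sites tested.

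The members with the smallest p in this contrast and at least 5 rats per group often changed their value between the 2 sets of calls, one made for aged against young and one for AI against AU rats. Higher in aged rats were chr19:39874473, chr1:136126714, chr6:149090619 and chr9:6523574. At chr19:39874473, near a listed intronic CpG of AABR06098126.1, the ratios ran from 0.826 over 1 to 1 in 11 aged rats and from 0.2 over 0.222 to 0.250 in 5 young rats. In the calls for AI and AU, however, the same site had means of 0.205 in 8 AI and 0.314 in 9 AU rats, and all 10 ratios present in both sets differed.

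At chr6:149090619 the ratios ran from 0.5 over 0.721 to 1 in 10 aged rats and were 0 in all 6 young rats. In the other calls the AI mean was 0 in place of 0.819, whereas the AU mean was 0.644 in both. At chr9:6523574 the AU mean was 0.850 in one set (3 rats) and 0 in the other (4 rats). The AI mean was 0.867 in both. At all 4 sites at least 1 aged rat had another ratio in the second set.

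Lower in aged rats were chr1:188039403, chr14:94158159, chr1:187697597 and chr9:7913856, and the last 3 had the same ratios of aged rats in both sets. The second set holds no young rats, so the young ratios could not be compared. At chr14:94158159 the ratios ran from 0 over 0.182 to 0.3 in 17 aged rats and from 0.242 over 0.304 to 0.375 in 8 young rats. At chr1:187697597 they were 0 in all 10 aged rats and ran from 0.429 over 0.682 to 0.750 in 6 young rats. At chr9:7913856 they were 0 in all 13 aged rats and ran from 0.667 over 0.750 to 0.9 in 5 young rats. At chr1:188039403, absent from the second set as used here, they ran from 0 over 0 to 0.167 in 5 aged and from 0.5 over 0.9 to 1 in 7 young rats. The groups overlapped at chr14:94158159 and were apart at the other 3.

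Among members with the same ratios in both sets, the largest p-ranked gains in aged rats, listed after their values were seen, were smaller. At chr19:312706 the ratios ran from 0.0714 over 0.167 to 0.417 in 12 aged rats and from 0 over 0 to 0.0833 in 5 young rats. The means were 0.185 and 0.0100 at chr1:26446018, and 0.134 and 0.0256 at chr8:40898724. At all 3 sites aged and young rats overlapped.

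The 2 sets of calls gave the same ratio for nearly every member and rat. Among the members with large differences between groups, however, some had moved ratios and others did not. Of the members, 6042 were present in the second set, and 99.8% of the 78007 ratios of an aged rat that both sets held were the same. The 144 ratios that differed, 66 of AI and 78 of AU rats, lay at 32 members (0.530%), and 57 of them moved by over 0.5. In the second set 38 were higher and 106 lower. At 20 of the 32 members the ratios of only 1 of the aged groups moved.

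Of the 40 members that passed the adjustment in the aged and young contrast, 35 were in both sets, 14 had moved ratios and 21 had not. Of the 30 members with group means over 0.5 apart, 27 were in both sets, of which 15 had moved ratios and 12 had not. Of the 230 sites left out by the limit of 0.8, 206 were in the second set and 136 had moved ratios. These counts rest on aged rats only, since the second set holds no young rats.

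**Figure D5:**
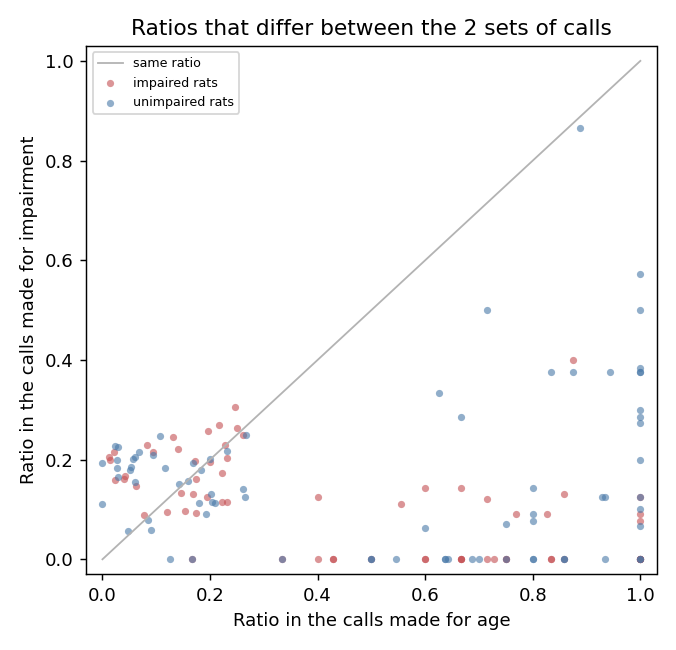
Ratio of an aged rat at a partially methylated CHG site in the calls made for age (horizontal axis) and in those made for impairment (vertical axis), for the 144 ratios that differ between the 2 sets. Of these, 106 lie below the line of equal ratios, many of them near 0 in the second set.

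The rule does not name the contrast of AI against AU, which was tested at the members, but it was not wholly independent of it. Of the 230 sites that the limit of 0.8 removed, 85 had AI and AU means over 0.8 apart in the second set, so the counts below leave out many of the largest gaps. Over all members the groups did not differ detectably. The mean per rat was 0.234 ± 0.0154 (SD, n = 9) in AI and 0.232 ± 0.0201 (SD, n = 11) in AU rats, with ranges of 0.220 to 0.255 and 0.211 to 0.269 (difference 0.00127, exact permutation test, 2-sided p = 0.878). It was 0.00285 for the 5 AI and 6 AU rats of series A (exact permutation p = 0.266). For the 4 AI and 4 AU rats of series B the sign turned, at -0.00664 (exact permutation p = 0.371).

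Of 5832 members tested at the single site, 294 (5.04%) had an unadjusted p under 0.05, where 6.25% of all 14555 tested CHG sites did. Of these, 159 were higher and 135 lower in AI rats, beside 3.22% and 3.02% of all tested sites. After adjustment over all tested sites, 10 members passed, 5 in each direction, beside 0.605% of all tested sites. Of the tested sites that were not members 7.05% had a p under 0.05, and of all CHG sites without a filter on the ratio 1.26%. Without series A, 55 of 1581 members (3.48%) had a p under 0.05 and 0 passed the adjustment, beside 5.0% and 0.0256% of the 3903 sites tested. At 5 of the 10 the ratios differed between the sets of calls. In the 5 bands from low to high, 5.05%, 4.44%, 6.0%, 4.39% and 5.36% of the tested members had a p under 0.05, so no level stood out.

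For single sites, the adjusted p is that of the unequal-variance test run at each of the 14555 sites, and the exact permutation p is a separate test of the same site that was not adjusted. The sites were picked for their small p in this contrast, and several had only 1 group mean over 0.1, so the exact p and the overlap of the groups describe the picked sites and add no evidence. Without the ratio filter 3 members passed the adjustment in place of 10. Higher in AI rats by the smallest p were chr1:136126714, chr16:17573050, chr16:30334177 and chr7:22456001. At chr16:17573050, near a listed CpG of Sh2d4b, which encodes an SH2 domain protein, the ratios ran from 0.111 over 0.250 to 0.3 in 7 AI rats and from 0 over 0 to 0.125 in 7 AU rats. The means were 0.224 ± 0.0712 and 0.0357 ± 0.0610 (exact permutation p = 0.00175, unadjusted, and site test, adjusted p = 0.0355), and the lowest AI rat lay within the range of the AU rats. The call was lost with the number series as a covariate in limma (adjusted p = 0.0813). The young mean, 0.143, lay between the groups.

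At chr16:30334177 the ratios ran from 0.0667 over 0.372 to 0.417 in 8 AI rats and from 0 over 0.127 to 0.182 in 8 AU rats (exact permutation p = 0.00140, unadjusted, and site test, adjusted p = 0.0948). At chr7:22456001, which had values in all 20 aged rats, they ran from 0.0714 over 0.143 to 0.2 in 9 AI rats and from 0 over 0.0769 to 0.150 in 11 AU rats (exact permutation p = 0.00229, unadjusted, and site test, adjusted p = 0.198). Both sites failed the adjustment in the site test, and chr16:30334177 passed with limma on the ratios (adjusted p = 0.0287) but with neither of the other limma fits (0.113 and 0.124). All 3 of these sites had the same ratios in both sets of calls.

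Lower in AI rats were chr19:37277690, chr6:149090619, chr2:67735057 and chr9:1397001. At chr19:37277690, near a listed exonic CpG of LOC296778, the ratios ran from 0 over 0.0526 to 0.0833 in 7 AI rats and from 0.105 over 0.183 to 0.333 in 10 AU rats. The groups did not overlap, and the means were 0.0448 ± 0.0328 and 0.2 ± 0.0671 (exact permutation p = 5.14e-05, unadjusted, and site test, adjusted p = 0.00519). It had the same ratios in both sets. In series A the AI mean was lower, at 0.0628 (5 rats) against 0.179 (6 AU rats). In series B it was 0 (2 rats) against 0.258 (3 AU rats). Since the site was picked on these same rats, the split by series adds no evidence. The mean of the young rats was 0.154.

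The other sites depended on the set of calls. At chr1:136126714 the ratios in the second set ran from 0.667 over 0.958 to 1 in 8 AI rats and from 0 over 0.0955 to 0.385 in 10 AU rats (exact permutation p = 2.29e-05, the smallest that 8 against 10 rats can give, unadjusted, and site test, adjusted p = 7.68e-07). In the first set the AU mean was 0.958 in place of 0.134, and the AI mean was 0.902 in both. At chr6:149090619 and chr2:67735057 it was the AI mean that moved, from 0.819 to 0 and from 0.791 to 0.147. At chr9:1397001 the AI mean moved from 0.708 (2 rats) to 0 (6 rats). The adjusted p of the site test was 0.0118, 0.0426 and 0.136 at these 3 sites in turn, and at chr9:1397001 it was between 5.86e-05 and 0.000288 in the 3 limma fits. In the first set both aged groups had means over 0.6 at all 4 sites.

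CpG sites near members had slightly lower ratios in aged rats. Over the 16502 CpGs within 100 bp of a member, aged rats averaged 0.690 ± 0.00277 (SD, n = 20) while young rats averaged 0.692 ± 0.00296 (SD, n = 10), with ranges of 0.685 to 0.694 and 0.688 to 0.699. The difference was -0.00294 (permutation test, 100000 resamples, 2-sided p = 0.0120, adjusted p = 0.0361 over the 3 per-rat tests on the near CpGs, the near CHH sites and the member mean of AI and AU). It was -0.00434 within series A (exact permutation p = 0.0467) and -0.00212 within series B (exact permutation p = 0.327). With each site centred on its mean over rats, the difference was -0.00330 (permutation p = 0.0555).

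The same direction was seen in the 63272 other autosomal CpGs, at -0.00430 (permutation p = 0.0320). The difference between near and other CpGs was not tested. CHH sites within 100 bp of members had means of 0.0182 ± 0.00106 in aged and 0.0181 ± 0.000657 in young rats (permutation p = 0.772, adjusted p = 0.878).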

How the data were processed

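The authors made whole genome bisulfite libraries from the mPFC of each rat. They trimmed the reads with Trimmomatic, checked them with FastQC and filtered unconverted bases with cscall. The reads were mapped to rn5 using BSMAP, and the calls came from cscall, part of DMAP2. Versions are not given in the sources used here. Whether the filter on unconverted bases drops whole reads is not stated either. If it does, reads with true non-CpG methylation can be lost, which lowers ratios at CHG sites. The deposited values are methylation ratios, that is the fraction of reads methylated per rat and site (0 to 1), missing under 5 reads and not scaled between rats. The reads behind each ratio are unknown, so no count test, interval or coverage minimum was applied. The number of members with a value, 1522 to 5785 per rat, stands in for depth. The used tables were the CpG, CHG and CHH calls for aged against young and the CHG calls for AI against AU rats, and 0 columns of rat values were left without a rat. The group means and SDs that the authors added to these tables were not used. Coordinates are rn5, 1-based as deposited.

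Members were found by the rule given in the report, on chromosomes 1 to 20. The members and lists were chosen with earlier results of these data known. Welch's test, 2-sided, was run on the whole CHG table at sites with values in 3 or more rats of each group and at least 1 group mean was over 0.1, with an unadjusted threshold of 0.05 and Benjamini-Hochberg adjustment over all sites tested. Means per rat were compared with exact permutation tests, or 100000 resamples for 20 against 10 rats. Alternatives were limma on ratios, on logit ratios (offset 0.05) and with the number series as covariate, at least 5 rats per group, no ratio filter, other member limits, 1 member per run, complete members, leaving out each series and members with the same ratios in both sets. The scripts were tested on simulated data. Named sites were, per contrast, the 4 higher and 4 lower members with the smallest p and at least 5 rats per group, the members and sites at the limits, the 4 runs with most members (5 with ties) with the member of each that has values in most rats and the 4 complete members with the largest SD. Sites outside this rule are marked in the report as chosen after their values were seen. Software was Python 3.11.15 with numpy 2.4.6, pandas 2.3.3 and scipy 1.17.1, and R 4.3.3 with limma 3.58.1. No sequence is shown, as no rn5 genome was used here.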

Additional observations from a re-analysis of the deposited data

Results flagged for a closer look

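In 52 groups of 4 to 10 rats, 8 had 1 rat apart from the rest by Dixon's criterion. Its chance rate of about 1 of 20 groups assumes independent values without ties. Many of these groups hold coarse ratios at sites picked for their values, so the number cannot be set against that rate. At chr1:136126714 the ratio of young rat 10 was 0.5 and the next 0.235. At chr1:187697597 young rat 7 had 0.429 and the next 0.636. At chr16:30334177, impaired rat 5 had 0.0667 and the next 0.273. At chr8:41801548 young rat 6 had 0 and the next 0.375, and at chr3:43264 the same rat had 0.696 and the next 0.840. At chr6:38848715 young rat 2 had 0.615 and the next 0.8. At chr19:312706 and chr1:26446018 a single young rat was above 0, rat 5 with 0.0833 and rat 2 with 0.05.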

How the results depend on the processing

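The share of members with an unadjusted p under 0.05 stayed within 1.5 times its main value in the alternatives that gave one, from 4.69% to 9.0% in aged against young and from 3.48% to 6.21% in AI against AU rats. With the ratio filter, the share over all tested sites ran from 6.26% to 14.4% and from 5.0% to 11.08%, highest with limma on logit ratios. Without it the share was 3.01% and 1.26%, and of the members only the adjusted number was taken. The numbers after adjustment did not. In aged against young rats, 40 became 19 with at least 5 rats per group, 16 without the ratio filter, 218 without the limit of 0.8, 18 with 1 member per run, 1 without series A, 21 with the same ratios in both sets and 0 among the 337 complete members, of which 20 had an unadjusted p under 0.05 in Welch's test. In AI against AU rats, 10 became 17 with limma, 24 on logit ratios, 18 with the number series, 5 with at least 5 rats per group, 3 without the ratio filter, 6 for members over 0.2 and at or under 0.8, 6 with 1 member per run, 5 without series C and 5 with the same ratios in both sets. It was 0 without series A, with 55 at an unadjusted p under 0.05, and 0 among 440 complete members, with 26. Fewer sites were tested with at least 5 rats per group and without a series, more without the ratio filter, and fewer members were counted over 0.2 and at or under 0.8, with 1 member per run, at complete members and with the same ratios. Otherwise the cause was not tested. The difference of AI and AU rats in the member mean turned to -0.00164 at complete members, -0.000511 with 1 member per run and -0.00664 within series B, and passed the threshold in none. The difference of aged and young rats at near CpGs no longer passed after centring (-0.00330) and within series B (-0.00212). Of 48 values of named sites under the 3 limma fits, 43 kept their call, 4 passed in addition, 1 was lost and none changed sign. No paired analysis was run, as each rat belonged to 1 group and gave 1 library. The unknown depth and the steps of 0.2 at 5 reads limit every single ratio.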
